A study of Mus musculus with 2 samples.

Results

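The proteasome subunit genes are the genes whose products build, cap and activate the proteasome, the chambered protease that degrades ubiquitin-tagged proteins. They were taken as every gene of the count tables whose symbol begins with Psma, Psmb, Psmc, Psmd or Psme followed by a digit, leaving out Psmb8 and Psmb9 and pseudogene symbols. The rule used names only and took 43 of 27998 genes. Expression was read in microglia, the resident macrophages of the brain, sorted from the corpus callosum, the main white matter tract, of C57Bl6 mice with the genotype CX3CR1 on a cuprizone diet of 4 weeks. This copper-binding toxin leads to death of oligodendrocytes and loss of myelin. All mice received it, so no unfed group is among the samples. The sources used here do not state which CX3CR1 allele the mice carried, their number, their age or the gate of the sort. Of the tract, the medial portion gave 1 single-cell library and the lateral portion 1, with no replicates, so every value below describes 2 libraries and no test between regions was possible.

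The core particle is a barrel of stacked rings. The outer alpha rings gate the entry and the inner beta rings hold the proteolytic sites, of which Psmb6 carries the caspase-like, Psmb7 the trypsin-like and Psmb5 the chymotrypsin-like activity. The regulatory cap sits on the barrel: its base holds a ring of ATPases that unfold and thread substrates, and its lid removes ubiquitin through Psmd14. Psme1 and Psme2 form another cap, which opens the core without ubiquitin or ATP and is induced by interferon gamma together with the immunoproteasome subunits Psmb8, Psmb9 and Psmb10, which replace Psmb5, Psmb6 and Psmb7. In macrophages and microglia that exchange changes which peptides are cut for MHC class I.

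The libraries held 28660496 medial and 27955414 lateral UMIs (unique molecular identifiers, which count captured molecules), of which 23442512 and 23047682 lay in cells. Cells were barcodes with at least 2400 UMIs and at most 10% mitochondrial UMIs. They numbered 2131 medial and 2308 lateral, with medians of 10732 and 9694 UMIs per cell, and 7 barcodes occurred in both libraries. Microglial markers made up 188 of every 10000 UMIs in medial and 189 in lateral cells. The 9 marker lists of other cells that a sort could hold lay between 0.000853 and 1.14 per 10000 medial and between 0.000434 and 0.981 lateral, and 13 and 14 of their 35 markers, Cd163, Mog and Cd3e among them, had no UMI. Levels are CPM, UMIs summed over the cells of a library and scaled to a total of 1000000. Each transcript is counted by a tag at its 3′ end, so levels were not divided by length. Values in parentheses are 95% intervals for counting error alone, exact Poisson for a level and exact conditional binomial for a ratio. They leave out variation between mice, between dissections and between cells.

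All 14 genes of the alpha and standard beta rings and all 17 cap genes matched by the rule were expressed, and the core stood above these cap genes. The cap subunits Adrm1 and Shfm1 have other symbols and are not in the cap values; Shfm1 had 445 CPM medial and 477 lateral. These 31 subunit genes summed to 4097 CPM (4071 to 4123) in the medial and 4320 CPM (4293 to 4346) in the lateral library, or 0.410% and 0.432% of all UMIs. Per gene, core subunits averaged 196 CPM medial and 207 lateral, cap subunits 79.7 and 83.3, and the core-to-cap ratio per gene was 2.46 medial and 2.49 lateral. Among the 31 genes ordered by mean level, 13 of the top 15 were core subunits. The highest core gene was 4.63 times the lowest, and the highest cap gene 3.46 times the lowest. A single-cell 3′ count also depends on how well each 3′ end is primed, so the order of genes is one of captured molecules.

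**Figure D1:**
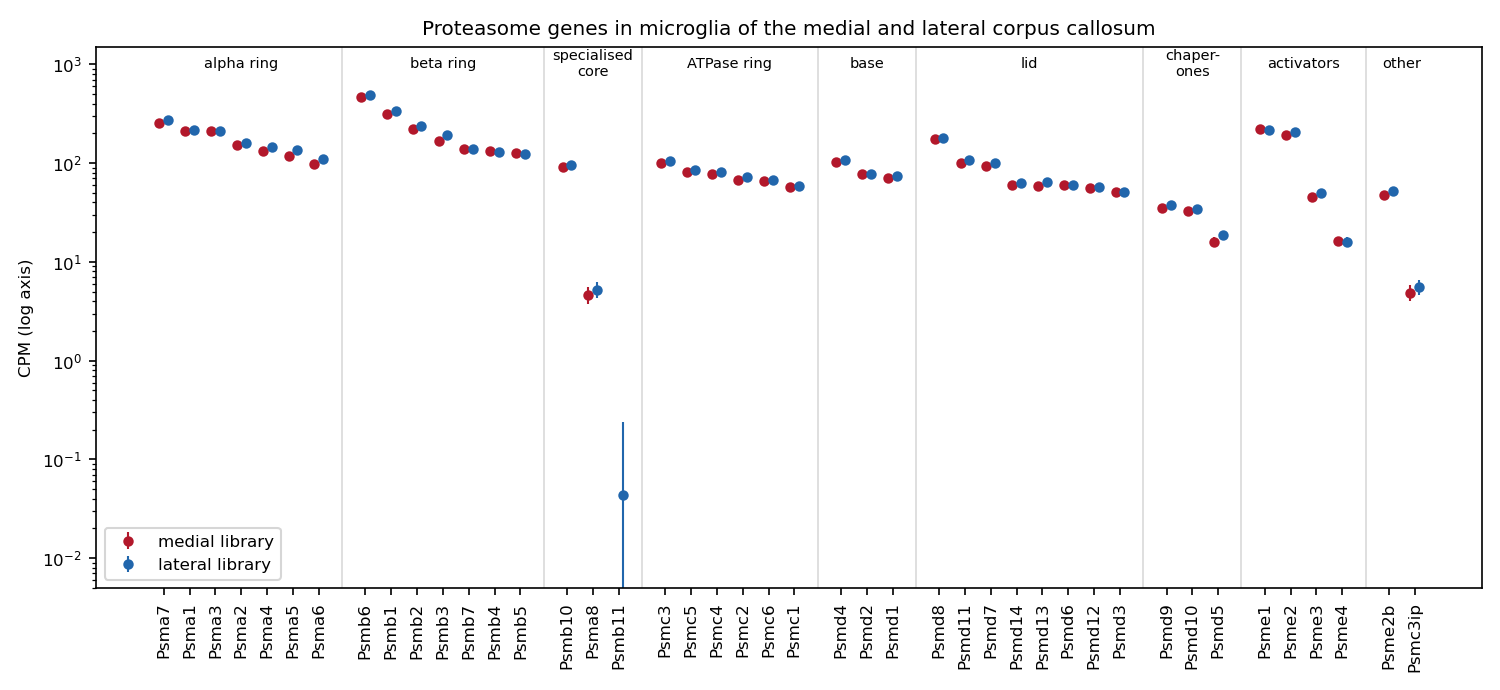
CPM of the 43 matched genes (log axis) by role, summed over the cells of the medial (red, left) and lateral (blue, right) library, with 95% Poisson intervals for counting error. Psmb6 is highest at 467 CPM medial and 493 lateral, core genes lie mostly above cap genes, and Psma8 and Psmc3ip lie near 5 CPM; Psmb11, with 0 medial UMIs, has a lateral point only.

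In the alpha ring Psma7 was highest, at 258 CPM (251 to 264) medial and 272 (265 to 279) lateral, and Psma6 lowest, at 97.9 (94.0 to 102) and 110 (105 to 114). The beta ring was led by Psmb6, the caspase-like subunit, at 467 CPM (459 to 476) medial and 493 (484 to 502) lateral, the highest level of any match. Psmb7, the trypsin-like subunit, had 138 CPM (133 to 142) medial and 138 (133 to 142) lateral. Psmb5, the chymotrypsin-like subunit, had the fewest UMIs of the ring, at 126 CPM (121 to 130) medial and 123 (119 to 128) lateral. Its 3′ end shares sequence with another gene, as given below. With each cell reduced to 3869 UMIs, Psmb6 had a UMI in 81.1% of 2000 medial cells (79.3 to 82.8, exact Clopper-Pearson) and in 82.6% of 2077 lateral cells (80.9 to 84.2). At their own depth the shares were 93.9% and 93.4%. No cell type that lacks proteasome transcripts is in the libraries to set a background for such shares; levels in free RNA are given further on.

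The specialised core subunits differed widely in level. Psmb10, which takes the place of Psmb7 in the immunoproteasome, had 90.5 CPM (86.7 to 94.5) in the medial and 94.8 (90.9 to 98.9) in the lateral library, so Psmb7 was 1.52 and 1.45 times as high. The pair of Psmb5 had the reverse order and that of Psmb6 the same order. The 3′ end of Psmb5 shares sequence with another gene. Psmb8, outside the 43 genes, reached 339 CPM medial and 360 lateral, so Psmb5 stood at 0.371 and 0.343 of its immunoproteasome counterpart. Psmb6 stood at 6.31 and 6.52 times Psmb9, which had 74.0 and 75.5 CPM. Psma8, a testis form of an alpha subunit, had 4.61 CPM (3.78 to 5.56) medial and 5.25 (4.36 to 6.27) lateral, against 4.10 and 5.28 CPM in free RNA. Psmb11, the subunit of thymic cortical epithelium, was not counted in medial cells (0 UMIs, which at a limit of 3 counts allows up to 0.128 CPM), and 1 UMI in lateral cells, 0.0434 CPM (0.00110 to 0.242).

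The 6 ATPases of the base lay within a narrow band. Psmc3 was highest at 99.9 CPM (95.9 to 104) medial and 105 (101 to 110) lateral, and Psmc1 lowest at 57.0 (54.0 to 60.1) and 58.0 (54.9 to 61.2). Of the other base subunits the ubiquitin receptor Psmd4 had 102 CPM (98.3 to 107) medial and 109 (104 to 113) lateral, and the scaffold Psmd1 71.4 (68.0 to 74.9) and 73.8 (70.4 to 77.4). Among the 8 matched lid genes Psmd8 was highest at 175 CPM (170 to 180) medial and 182 (176 to 187) lateral, and Psmd3 lowest at 51.6 (48.7 to 54.6) and 51.4 (48.5 to 54.4). Psmd14, the deubiquitinase of the lid, had 59.6 CPM (56.5 to 62.8) medial and 63.3 (60.1 to 66.6) lateral. The chaperones that assemble the base were lower than every core or cap subunit in both libraries: Psmd9 had 35.0 CPM (32.7 to 37.5) medial and 37.4 (35.0 to 40.0) lateral, Psmd10 32.4 and 34.4, and Psmd5 16.1 (14.5 to 17.8) and 18.8 (17.1 to 20.7).

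Among the activators the interferon-inducible pair was as high as core subunits. Psme1 had 222 CPM (216 to 228) in the medial and 215 (210 to 222) in the lateral library. Psme2 had 191 CPM (186 to 197) medial and 207 (202 to 213) lateral. Psme3, the nuclear activator, had 45.5 CPM (42.8 to 48.3) medial and 49.4 (46.6 to 52.4) lateral, so Psme1 was 4.87 and 4.36 times as high. Psme4, an activator known for its part in histone turnover, had 16.2 CPM (14.6 to 17.9) medial and 16.1 (14.5 to 17.8) lateral. The remaining matches are not subunits in their own right. Psme2b, a copy of Psme2, had 47.8 CPM medial and 51.7 lateral, and Psmc3ip, a partner protein in meiotic recombination that shares only the symbol root, had 4.82 and 5.51.

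The matches sit on 16 chromosomes, with 10 on chromosome 11, 6 on chromosome 14 and 5 on chromosome 2. In GENCODE M21 on GRCm38, Psme1 lies at chr14:55578123-55581529 on the plus strand and Psme2 at chr14:55587441-55591113 on the minus strand, while the copy Psme2b lies at chr11:48945354-48946190. Of the 57-base windows in the last 500 bases of the annotated transcripts of Psme2, 63.4% also occur on the same strand in another gene, Psme2b, and 51.4% of those of Psme2b occur in Psme2. The counts of the pair are therefore uncertain one against the other. For 27 of 43 matches no such window was shared on the same strand, and for 9 more than 20% were: Psma3, Psma4, Psma5, Psmb3, Psmb5, Psmd1, Psmd2, Psme2 and Psme2b. On the opposite strand Psmb7 shared 67.1% of windows with Nek6 and Psmc3ip 74.1% with Mlx; the sources used here do not state whether counting used strand.

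Promoters were available for 36 of the 43 genes as RefSeq windows on GRCm38.p6, from 250 bases before the transcription start to 50 after it, and 12 motifs were searched on both strands. No entry was present for Psma8, Psmb1, Psmb2, Psmb7, Psmc3, Psmd3 or Psmd7. The ETS core CCGGAA was in 18 of 36 promoters (50%), against 16.7% of the 27025 promoters of all genes, and the GC box GGGCGG in 21 (58.3%), against 38.2%. The TATA box TATAAA was in 3, or 8.33%, against 15.7%. The antioxidant response core TGACNNNGC, which binds cap'n'collar factors such as the proteasome regulator Nfe2l1, was in 6, or 16.7%, against 14%, and its second form TGAGNNNGC in 12, or 33.3%, against 19.8%. The interferon-stimulated response letters, GAAA repeated after 2 bases, were in 4, those of Psmb3, Psmd4, Psmd9 and Psme1, or 11.1%, against 3.99%. The CCAAT box was in 14, or 38.9%, against 41.1%; the E box CACGTG in 4, or 11.1%, against 8.09%; and the interferon gamma activated letters, TTC and GAA spaced by 3 or by 4 bases, in 1 each, Psmd2 and Psmb10, or 2.78%, against 9.55% and 8.01%. The cyclic AMP and E2F letters (TGACGTCA and TTCGCGCC) were in 0 of 36, against 2.03% and 0.603%. Some windows hold several motifs, and a match is a stretch of letters, not a bound site.

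The stretches below show these letters in capitals, 5′ to 3′ on the strand of the gene, for Psme1, an activator that was higher in cells with interferon-response transcripts, for catalytic subunits with the antioxidant response core, and for cap subunits with the ETS core that were higher in cells with proliferation transcripts. The ETS letters were also in promoters of Psmc5, Psmd4, Psmd11 and Psmd12, cap genes not above 1.2 in both libraries in those cells. They were not in the promoters of Psmc4, Psmd1 and Psmd14, which were above it. The start of the transcript counts as base 0. The first lies at chr14:55578493-55578522 (plus strand, motif at bases 9 to 18, on its opposite strand), the second at chr11:70525338-70525366 (plus strand, motif at -9 to -1), the third at chr14:54618024-54618052 (minus strand, -47 to -39), the fourth at chr14:45329694-45329759 (plus strand, -100 to -95), the fifth at chr16:20651540-20651605 (plus strand, -82 to -77) and the last at chr7:140882378-140882403 (plus strand, -6 to -1).
Psme1, interferon-stimulated response: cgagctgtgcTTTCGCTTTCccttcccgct
Psmb6, antioxidant response core: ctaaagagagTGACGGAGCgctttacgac
Psmb5, antioxidant response core: cgtgaagttgTGACGTCGCggcgttgcca
Psmc6, ETS core: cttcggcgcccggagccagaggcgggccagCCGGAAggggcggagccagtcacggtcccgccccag
Psmd2, ETS core: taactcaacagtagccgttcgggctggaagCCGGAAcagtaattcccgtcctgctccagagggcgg
Psmd13, ETS core: gcccgcggtgCCGGAAgtgagcgagc

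The medial and lateral libraries were close for the proteasome genes, with most slightly lower in the medial one. Of 42 genes with at least 100 UMIs over both libraries, 36 had a medial-to-lateral ratio below 1 (85.7%), against 59.1% of the 9844 genes at that minimum. With ratios centred on the median gene, 31 of 42 (73.8%) lay below it. A ratio below 1/1.1 was found for 6 (Psma5, Psma6, Psma8, Psmb3, Psmc3ip and Psmd5), against a background of 24.7%, or for 10 with cells thinned to 1 depth, and above 1.1 for 0, against 16.3%. The share of all genes was not computed for thinned cells. A ratio of 1.2 in either direction was passed by 0 of 42, where 7.49% of all genes lay below and 7.42% above. The median log2 ratio of the 42 genes was -0.08, against -0.04 for all genes, whose central 90% ran from -0.31 to 0.33. All 42 genes lay inside that range, from -0.23 for Psmd5 to 0.04 for Psme1. The background genes were not matched to the 42 by UMI level, and ratios of genes with few UMIs spread more by counting error. The log2 interval ran from -0.57 to 0.18 for Psmc3ip, with 240 UMIs, and from -0.11 to -0.04 for Psmb6, with 22308.

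By role, the log2 ratio of summed UMIs, medial over lateral, was -0.08 (-0.10 to -0.07) for the 14 core genes and -0.06 (-0.09 to -0.04) for the 17 cap genes. It was -0.12 (-0.21 to -0.03) for the 3 base chaperones and -0.04 (-0.08 to -0.00) for Psme1 to Psme4. Centred on the median gene, the core stood at -0.0455 and the cap at -0.0266. Within each ring the genes were not uniform. Psma5 had 117 CPM (113 to 121) in the medial and 135 (130 to 140) in the lateral library, a log2 ratio of -0.21 (-0.28 to -0.14), whereas Psma3 had 212 and 213 CPM. Psmb3 had 168 CPM medial and 191 lateral, a log2 ratio of -0.19 (-0.25 to -0.12), whereas Psmb5 was at 0.03 (-0.05 to 0.10). Psma5, Psmb3, Psma3 and Psmb5 are all among the genes with more than 20% of windows shared. The gene farthest below 1 was Psmd13 in the lid, at -0.13 (-0.24 to -0.03), Psmc2 among the ATPases, at -0.11 (-0.21 to -0.01), and Psmd4 among the other base genes, at -0.09 (-0.17 to -0.00). No matched cap gene but Psmd3, at 51.6 and 51.4 CPM, had a ratio above 1. Of the activators Psme1 was at 0.04 (-0.02 to 0.10), Psme2 at -0.12 (-0.18 to -0.06), Psme3 at -0.12 (-0.24 to 0.00) and Psme4 at 0.01 (-0.20 to 0.22). Without the cells holding proliferation transcripts, which were a smaller share of the medial library, 33 of 42 genes lay below 1, by a calculation added after the data were seen. The share of all genes below 1 was not computed without those cells.

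**Figure D2:**
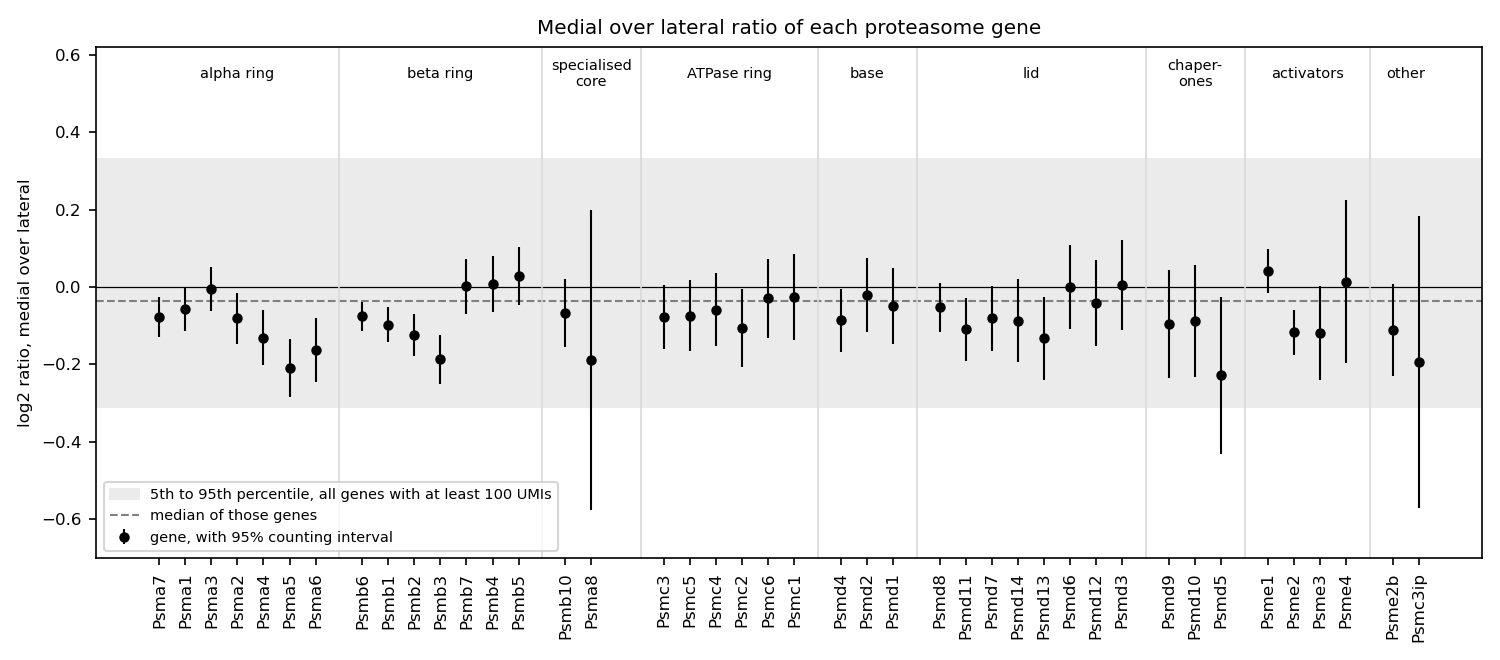
Log2 ratio of CPM, medial over lateral, for the 42 genes with at least 100 UMIs, by role, with 95% counting intervals; the grey band is the 5th to 95th percentile of all 9844 genes and the dashed line their median of -0.04. All 42 points lie inside the band, between -0.23 (Psmd5) and 0.04 (Psme1), and 36 lie below 0. The band is not matched to the UMI level of the 42 genes.

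The genes that work with the proteasome were close in the same way. Of 28 partner genes reported, 20 had a ratio below 1 and 8 above it, with a median log2 ratio of -0.07. Of all 9844 genes with at least 100 UMIs, 59.1% had a ratio below 1. Pomp, the core maturation factor, had 422 CPM medial and 443 lateral, the ubiquitin receptor Adrm1 63.8 and 67.1, the deubiquitinase Usp14 46.5 and 46.6, and the transcription factor Nfe2l1 21.8 and 22.3. Psmb8 had a log2 ratio of -0.09 (-0.13 to -0.04) and Psmb9 of -0.03 (-0.13 to 0.07). Of these 28 genes 1 passed a ratio of 1.2 in either direction, where 7.49% of all genes lay below 1/1.2 and 7.42% above 1.2. Zfand5, a zinc finger protein that binds ubiquitin and activates the proteasome, had 248 CPM (241 to 254) medial and 204 (198 to 210) lateral, a log2 ratio of 0.28 (0.22 to 0.33).

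Within each library the cap stood out in cells with proliferation transcripts, whereas the interferon-inducible activators did not. Such a cell carried, after reduction to 3869 UMIs, 3 or more UMIs spread over 2 or more of 20 cycling genes; there were 382 of 2000 medial cells (19.1%, 17.4 to 20.9) and 450 of 2077 lateral cells (21.7%, 19.9 to 23.5). The 31 subunits summed to 4787 CPM in these cells and 3924 CPM in other cells of the medial library, a log2 ratio of 0.29 (0.27 to 0.31). In the lateral library they summed to 4941 and 4150 CPM, a log2 ratio of 0.25 (0.23 to 0.27). For the cap the log2 ratio was 0.39 (0.35 to 0.42) medial and 0.36 (0.32 to 0.39) lateral, and for the core 0.24 (0.21 to 0.26) and 0.20 (0.17 to 0.22). The counting intervals of cap and core, which leave out spread between cells, did not overlap in either library. The ATPases stood at 0.43 and 0.47 and the lid at 0.34 and 0.29. For Psme1 to Psme4 summed it was 0.02 (-0.04 to 0.09) and -0.01 (-0.08 to 0.05). Cells with proliferation transcripts were also deeper, with medians of 12955.5 UMIs against 10914 in other medial cells and 11798.5 against 10104 in other lateral cells. With cells compared within quartiles of UMI total, added after the data were seen, the log2 ratio was 0.35 and 0.30 for the cap and 0.21 and 0.17 for the core. The class is a range rather than a type: 216 medial and 217 lateral cells lay next to its limit.

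Of the 42 genes, 18 were above other cells by more than 1.2 in both libraries, where 20.6% of 8535 genes were, and 0 lay below 1/1.2 in both, where 5.18% did. Among subunits these were 11 of 17 cap genes and 4 of 14 core genes (Psma1, Psma6, Psmb2 and Psmb7). A ratio above 1 in both libraries was found for 36 of 42 genes, against 50.4% of all genes, and for 30 of the 31 core and cap genes, the exception being Psmb1. The median log2 ratio of the 42 genes was 0.31 medial and 0.29 lateral, against 0.09 in both for all genes. Those 11 cap genes were Psmc1, Psmc2, Psmc3, Psmc4, Psmc6, Psmd1, Psmd2, Psmd3, Psmd6, Psmd13 and Psmd14. The ATPase Psmc3 had 137 CPM in cells with proliferation transcripts and 89.8 in other medial cells, 0.61 (0.48 to 0.73) on the log2 scale, and 140 and 94.7 CPM in the lateral library, 0.56 (0.43 to 0.68). The scaffold Psmd1 had 104 and 62.7 CPM medial, 0.72 (0.57 to 0.88), and 96.5 and 67.0 CPM lateral, 0.53 (0.38 to 0.68). The deubiquitinase Psmd14 had 86.6 and 52.4 CPM medial, 0.72 (0.56 to 0.89), and 78.2 and 58.9 lateral, 0.41 (0.24 to 0.57).

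Psmb6 and Psmb1, the core genes with most UMIs, differed little. Psmb6 had 495 CPM in cells with proliferation transcripts and 462 in other medial cells, and 517 and 488 in the lateral library. Psmb1 had 310 and 316 CPM medial, and 339 and 335 lateral. Of the activators Psme3 alone was above other cells by more than 1.2 in both libraries, with 54.9 and 42.9 CPM medial, 0.36 (0.16 to 0.56), and 59.1 and 46.0 lateral, 0.36 (0.17 to 0.55). Psme1 was lower, with 204 CPM in cells with proliferation transcripts and 227 in other medial cells, -0.16 (-0.26 to -0.06), and 200 and 222 in the lateral library, -0.15 (-0.25 to -0.06). Psme2 had 203 and 188 CPM medial, 0.11 (0.01 to 0.21), and 214 and 207 lateral, 0.05 (-0.05 to 0.14). Psmb10 had 86.6 and 92.2 CPM medial, -0.09 (-0.24 to 0.06), and 84.6 and 99.0 lateral, -0.23 (-0.38 to -0.08), whereas Psmb8 stood at 0.12 and 0.18 and Psmb9 at 0.19 and 0.24. The widest difference of any match was that of Psmc3ip, no proteasome subunit, with 13.7 CPM in cells with proliferation transcripts and 2.23 in other medial cells, 2.62 (2.03 to 3.21), and 15.4 and 2.16 in the lateral library, 2.84 (2.26 to 3.44).

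**Figure D3:**
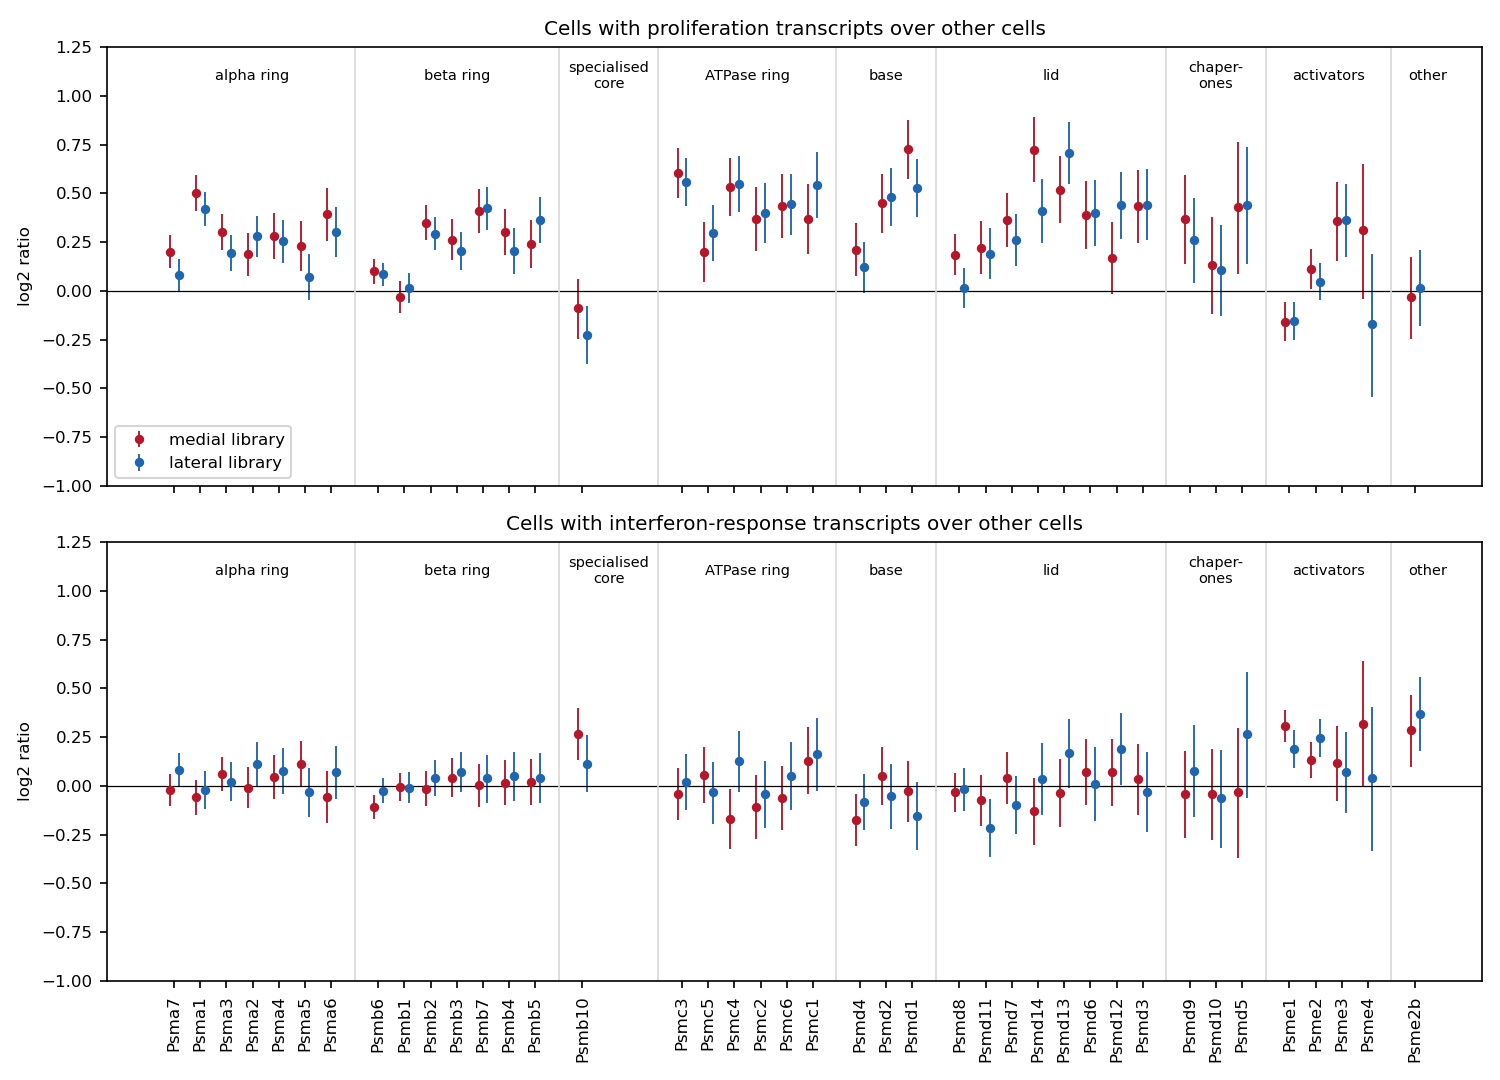
Log2 ratio of CPM within the medial (red, left) and lateral (blue, right) library, for cells with proliferation transcripts over other cells (top) and cells with interferon-response transcripts over other cells (bottom), with 95% counting intervals; Psma8, Psmb11 and Psmc3ip are not drawn. In the top panel all 17 cap genes lie above 0 in both libraries and Psme1 and Psmb10 below it; in the bottom panel core and cap genes lie around 0 and Psme1, Psme2, Psme2b and Psmb10 above it.

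In cells with interferon-response transcripts the summed activators were higher, while summed core and cap genes differed little from other cells. These cells were taken as cells with 3 or more UMIs spread over 2 or more of 17 interferon-response genes at the same reduced depth, 562 medial (28.1%, 26.1 to 30.1) and 441 lateral (21.2%, 19.5 to 23.1). Their core and cap genes summed to 4079 CPM against 4130 in other medial cells, a log2 ratio of -0.02 (-0.04 to 0.00), and to 4387 against 4339 in the lateral library, 0.02 (-0.01 to 0.04). Psme1 to Psme4 summed to 528 and 453 CPM medial, 0.22 (0.16 to 0.28), and to 545 and 476 CPM lateral, 0.20 (0.13 to 0.26). With at least 5 UMIs from at least 3 genes, which 227 medial and 164 lateral cells held, it was 0.28 and 0.29. Median depths were near each other, at 11318.5 UMIs against 10991 in other medial cells and 10641 against 10274.5 in the lateral library. With the definition of 3 UMIs, 338 medial and 344 lateral cells lay next to the limit.

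Psme1 had 257 CPM in cells with interferon-response transcripts and 208 in other medial cells, a log2 ratio of 0.31 (0.22 to 0.39), and 240 and 210 in the lateral library, 0.19 (0.09 to 0.29). Psme2 had 204 and 186 CPM medial, 0.13 (0.04 to 0.22), and 238 and 201 lateral, 0.25 (0.15 to 0.34). Its copy Psme2b was the only 1 of 42 genes above 1.2 in both libraries, with 54.5 and 44.7 CPM medial, 0.28 (0.10 to 0.47), and 62.8 and 48.6 lateral, 0.37 (0.18 to 0.56); 4.48% of 8535 genes were above 1.2 in both, and 0.926% below 1/1.2, where none of the 42 lay. Psme3 stood at 0.12 (-0.08 to 0.31) and 0.07 (-0.14 to 0.28), and Psme4 at 0.32 (-0.00 to 0.64) and 0.04 (-0.33 to 0.40), so their intervals held 0. Of the immunoproteasome genes Psmb9 stood at 0.49 (0.35 to 0.63) medial and 0.53 (0.38 to 0.68) lateral, and Psmb8 at 0.19 (0.13 to 0.26) and 0.13 (0.06 to 0.21). Psmb10 stood at 0.27 (0.13 to 0.40) medial and 0.11 (-0.03 to 0.26) lateral, so its lateral interval held 0, and its intervals overlap those of Psmb8. Of the 4 genes with the interferon-stimulated response letters in their promoter, Psme1 was higher in both libraries, Psmb3 stood at 0.04 and 0.07, Psmd9 at -0.04 and 0.08, and Psmd4 at -0.18 and -0.08.

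Cells were also ranked within each library by their UMIs of 15 immediate early genes, such as Fos and Junb, which are known to be induced when tissue is dissociated, and cut in quartiles. From the lowest to the highest quartile the core particle had 2932, 2914, 2778 and 2397 CPM in the medial library and 3082, 3024, 2945 and 2655 in the lateral library. The log2 ratio of top over bottom quartile was -0.29 (-0.32 to -0.26) medial and -0.21 (-0.25 to -0.18) lateral for the core, against -0.13 (-0.18 to -0.09) and -0.04 (-0.09 to 0.00) for the cap. All 14 core genes lay below 1 in both libraries, as did 31 of the 40 genes measured in each, against 37.0% of all genes. Below 1/1.2 in both were 5 genes (Psma1, Psma2, Psma6, Psmb2 and Psmb3), where 9.71% of 7022 genes were, and above 1.2 in both were Psmd2 and Psmd5, where 16.2% were. Psma6 had 83.0 CPM in the top and 115 in the bottom quartile of the medial library, -0.47 (-0.64 to -0.30), and 92.2 and 125 in the lateral library, -0.44 (-0.60 to -0.27). The scaffold Psmd2 had 89.2 and 69.7 CPM medial, 0.35 (0.16 to 0.55), and 92.0 and 70.7 lateral, 0.38 (0.19 to 0.57). Median depths of the top and bottom quartiles were 10972.5 and 11119 UMIs medial, and 10572.5 and 10520 lateral. The highest quartile began at 29 UMIs of the list medial and 22 lateral, and the lowest ended at 12 and 9.

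**Figure D4:**
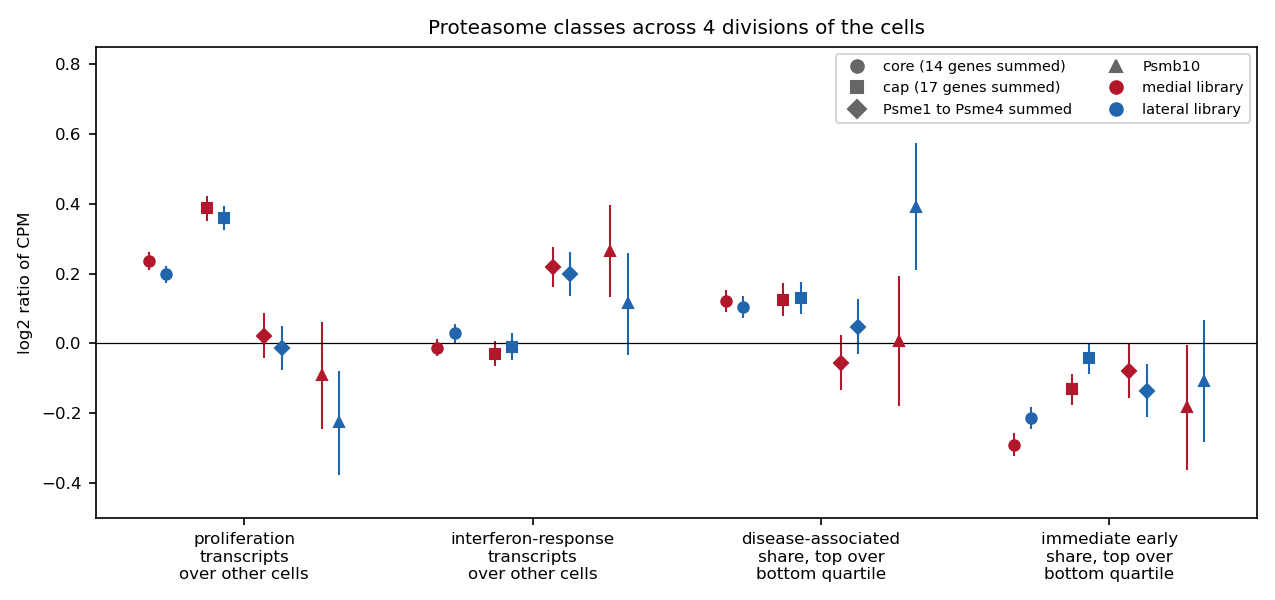
Log2 ratio of CPM for summed core (circles), cap (squares), Psme1 to Psme4 (diamonds) and Psmb10 (triangles) in 4 divisions of the cells, in the medial (red, left) and lateral (blue, right) library, with 95% counting intervals. The cap is highest in cells with proliferation transcripts (0.39 and 0.36), the activators in cells with interferon-response transcripts (0.22 and 0.20), and the core is below 0 in the top quartile of immediate early UMIs (-0.29 and -0.21).

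Cells were likewise cut in quartiles by their UMIs of 15 disease-associated microglial genes, such as Spp1 and Lpl. Here the 31 summed subunits differed less, in log2 ratio, than in cells with proliferation transcripts. The median log2 ratio of the 40 genes measured, top over bottom quartile, was 0.12 medial and 0.13 lateral. For all genes it was -0.14 and -0.17. From the lowest to the highest quartile the 31 subunits had 3849, 4075, 4303 and 4192 CPM in the medial library and 4080, 4261, 4602 and 4413 in the lateral library, so the third quartile was the highest in both. The log2 ratio of top over bottom quartile was 0.12 (0.10 to 0.15) medial and 0.11 (0.09 to 0.14) lateral, where the median of all genes was -0.14 and -0.17. Depth differed, with medians of 12143 and 9799.5 UMIs in the top and bottom quartiles of the medial library and 11890 and 9039 in the lateral library, and at matched UMI totals, added after the data were seen, the ratio was 0.07 and 0.05. Above 1.2 in both libraries were the lid subunit Psmd6, at 0.35 (0.12 to 0.59) and 0.48 (0.25 to 0.72), and the chaperone Psmd10, at 0.31 and 0.30, of 40 genes, where 4.78% of 6950 genes were; below 1/1.2 were 0, where 21.3% were. Psmb10 had 85.3 and 84.9 CPM in the top and bottom quartiles of the medial library, 0.01 (-0.18 to 0.19), and 105 and 79.7 in the lateral library, 0.39 (0.21 to 0.57). Psme1 to Psme4 summed stood at -0.06 (-0.13 to 0.02) medial and 0.05 (-0.03 to 0.13) lateral, or at -0.15 and 0.14 with cells thinned to 1 depth.

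Deeper cells held a higher share of proteasome UMIs. From the lowest to the highest quartile of cells by UMI total the 31 subunits had 3481, 3704, 4121 and 4545 CPM in the medial library and 3782, 3985, 4188 and 4840 in the lateral library. The log2 ratio of top over bottom quartile was 0.38 (0.35 to 0.42) and 0.36 (0.33 to 0.39), and 21 of 40 genes were above 1.2 in both libraries, where 12.4% of 7111 genes were. None was below 1/1.2 in both, where 9.34% were. For Psme1 to Psme4 summed it was 0.13 (0.04 to 0.22) medial and 0.22 (0.13 to 0.31) lateral. No doublet caller was run. Without the 2% of cells with most UMIs in each library, 37 of 42 genes had a medial-to-lateral ratio below 1. The share of all genes was not computed in that setting.

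Single cells differed more in core and cap UMIs than counting error alone gives. At 3869 UMIs a medial cell held a mean of 15.3 UMIs of the 31 genes and a lateral cell 16.1, with a median of 15 in both. The 5th to 95th percentiles ran from 7 to 25 medial and from 8 to 27 lateral, and every cell had at least 2. The variance was 1.98 times the mean in the medial and 2.03 times in the lateral library, where counting error alone gives about 1. Taken alone, the core had 1.60 and 1.75 and the cap 1.46 and 1.45. The activators, at a mean of 1.80 and 1.85 UMIs per cell, had 1.09 and 1.1. Core means were 10.2 and 10.9 UMIs per cell, and cap means 5.03 and 5.24. At an equal relative spread between cells this ratio rises with the mean, so it does not rank these sets. No other set of genes was measured in this way, so the spread is not shown to be particular to the proteasome. Across cells, UMIs of the 31 genes had a correlation of -0.19 medial and -0.30 lateral with ribosomal protein UMIs. With the mitochondrial share it was -0.11 and -0.18. Both were taken at a fixed total per cell, where more UMIs of some genes leave fewer for others. The part of that limit in these correlations was not tested. Core UMIs had a correlation of 0.28 and 0.23 with the UMI total of the cell before reduction.

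**Figure D5:**
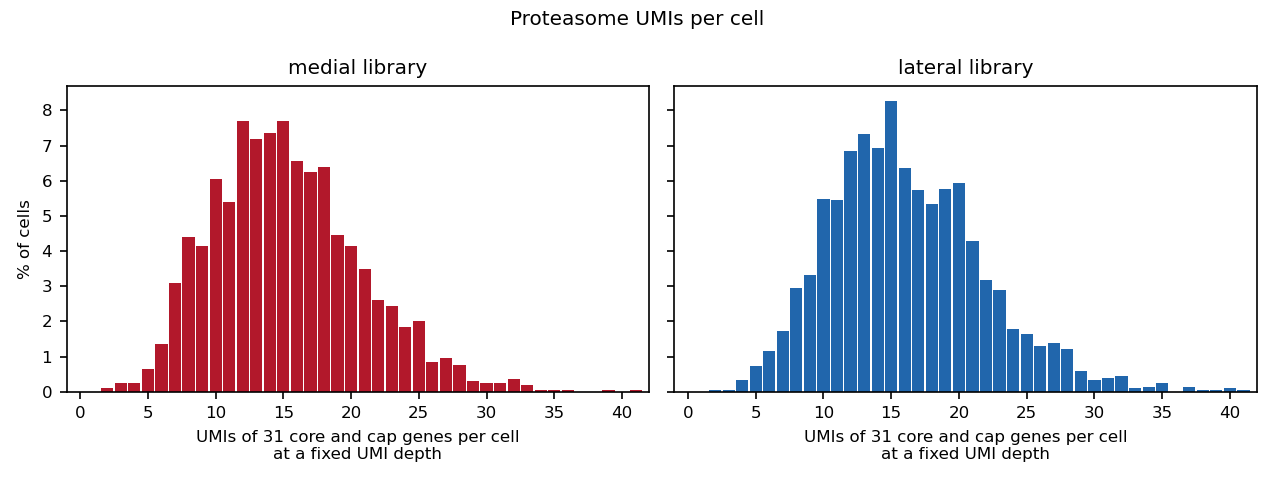
Share of cells (%) by number of UMIs of the 31 core and cap genes, each cell reduced to 3869 UMIs, for 2000 medial (left) and 2077 lateral (right) cells. Both distributions have a single hump with a median of 15 UMIs and a tail to 41.

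Free RNA, read from barcodes with at most 100 UMIs, held summed core and cap transcripts at a higher level than the cells. The 31 subunits had 4805 CPM in medial and 4998 in lateral free RNA, against 4097 and 4320 in cells. The median log2 ratio of cells over free RNA was -0.21 medial and -0.16 lateral for the 42 genes, against 0.09 and 0.10 for all genes. Below free RNA by more than 1.2 in both libraries were 9 genes (Psma1, Psma2, Psmb2, Psmb4, Psmb5, Psmb7, Psmc6, Psmd10 and Psmd12), where 6.53% of 8861 genes were. Above it were 5 (Psmd1, Psme2, Psme2b, Psme3 and Psme4), where 22.2% were. Psmb6 had 467 CPM in medial cells against 592 in medial free RNA, and 493 in lateral cells against 581 in lateral free RNA. Psme2 had 191 CPM in medial cells against 144 in free RNA, and 207 in lateral cells against 156. The part of free RNA in the small differences between libraries was not tested.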

How the data were processed

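Per the submitters' processing notes the authors used Cell Ranger 2.0.1, STAR and mm10; their annotation release was not given in the sources used here. Deposited values of both libraries are raw UMI counts without normalisation, covering 27998 genes by 737280 barcodes in each. Sequencing reads were 57 bases long, per the labels. Cells were called from the counts by UMI total and mitochondrial share, which removed 3 barcodes per library; no doublet caller was run. UMIs were summed over cells and scaled to CPM with Python 3.11.15, numpy 2.4.6, scipy 1.17.1 and pandas 2.3.3; figures used matplotlib 3.10.9. Levels, ratios and intervals were computed by a routine tested on simulated counts that held counting error alone.

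The depth of 3869 UMIs used for classes of cells left out 131 medial and 231 lateral cells. Ratios within a library used those cells at their own depth. With 1 library per region there is no test, no p-value and no count of changed genes; cells are not replicates, and counting intervals are the only error given. Genes enter a count when they have at least 100 UMIs over both libraries, or in each library for divisions of cells; for free RNA the minimum there was 30 UMIs.

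Every match is accounted for. Full values are given for the members of each class with most and fewest UMIs and farthest from a ratio of 1, the catalytic subunits, Psmb10, Psmd14 and the activators; of the partners for Psmb8, Psmb9, Pomp, Adrm1, Nfe2l1, Usp14 and any past a ratio of 1.2. Some partner genes are not reported here. Other named genes were chosen after their values were seen. The members, lists and divisions were chosen with earlier results of these data known. Alternatives changed the cell minimum, the mitochondrial limit, the gene minimum, the scaling, the weighting of cells, the depth and the class limits.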

Additional observations from a re-analysis of the deposited data

How the results depend on the processing

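Of 1389 values recomputed under alternatives, 1298 stayed inside the counting interval of the value reported, or within 1.5 times for a count. Outside it 88 moved, and 3 changed sign. Most values were of single genes, whose intervals are wider: 1105 stayed, 52 moved and 3 changed sign. Of the medians, counts and summed classes, 193 stayed and 36 moved. The number of genes with a medial ratio below 1/1.1 was 10 with cells thinned to 1 depth, against 6. Centring on the median gene gave log2 medial-over-lateral ratios of -0.0419 for the median gene of the 42, -0.0455 for the core, -0.0266 for the cap and -0.0392 for all 31 subunits. A total without mitochondrial and ribosomal protein genes gave -0.0637 for the median and -0.0611 for the 31.

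In cells with proliferation transcripts, matching UMI totals, a choice made after seeing the data, gave 0.25 for all subunits, 0.21 for the core and 0.35 for the cap in the medial library, and 0.21, 0.17 and 0.30 in the lateral library. Thinning gave 0.22 for all subunits, 0.16 for the core and 0.0531 for the activators in the lateral library. The stricter class gave -0.0494 for the activators in the medial library. In cells with interferon-response transcripts the stricter class gave 0.00394 for all medial subunits and 0.28 medial and 0.29 lateral for the activators; without cells holding proliferation transcripts, also chosen after seeing the data, all medial subunits stood at -0.0472 and the medial cap at -0.0915.

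For quartiles of disease-associated UMIs, matched totals gave 0.0699 for all subunits, 0.0687 for the core and 0.0722 for the cap medial, and 0.0453, 0.0488 and 0.0396 lateral. A total without the ranking list gave 0.15 for all subunits medial, and 0.15 for all and 0.14 for the core lateral. Thinning gave 0.16 for the core and -0.15 for the activators medial, and 0.15 for the core, 0.0778 for the cap and 0.14 for the activators lateral. For the immediate early quartiles no summed class moved outside its interval.

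With thinning, 3 single genes changed sign: Psmc2, medial over lateral, to 0.00153; Psmb5 in medial cells with proliferation transcripts, to -0.00112; and Psmb9 across medial disease-associated quartiles, to -0.0107. The cause of these moves was not tested; thinning keeps fewer UMIs. No paired analysis was possible because each region has 1 library and no replicate numbers, and no replicate was left out in turn. A class of cells in 1 library gives no error for the region, and genes under 100 UMIs, such as Psmb11, were too sparse to compare.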
